A study of Mus musculus with 2 samples.

Results

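The block of mouse miRNAs numbered 6896 to 7094 consists mostly of entries derived from short introns, and its 3p arms, the strands from the 3′ side of each hairpin, were examined here in exosome RNA. Within the block, members were taken by name alone: every miRNA name on the array with a number in this range, with or without a letter, that ends in -3p. The choice was made with earlier results of these data known. This gave 199 members out of 1881 miRNA names. The RNA came from exosomes, small membrane vesicles that cells release, in the culture supernatant of the Lewis lung carcinoma (LLC) cell line, a mouse lung tumour line. Both samples formed a single group: LLC cells at 80% confluence received cisplatin, which crosslinks DNA, at 5 µM for 24 h in medium without serum. Each of the 2 samples came from an independent experiment and was hybridised to its own one-colour miRNA array. No untreated group was analysed here, so the arrays show which members gave a signal and how repeatable it was, and no comparison between conditions or p-value was possible.

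Mirtrons are miRNA hairpins that are made by splicing rather than by the Drosha enzyme: the whole intron, or one end of it, folds into a hairpin that Dicer then cuts. Where the 3p arm of such a hairpin lies at the 3′ end of the intron, it carries the intron's polypyrimidine tract and ends at the AG of the splice acceptor. A mature miRNA pairs with its target mRNAs mainly through its seed, bases 2 to 8.

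Of the 199 members, 175 had a mature sequence in RefSeq (build GRCm38.p6), and their sequences had the layout of splice acceptors. The last 2 bases were AG in 136 of the 175 (77.7%), against 56 of 500 3p arms of other numbers (11.2%) and 12 of 176 5p arms of the same block (6.82%). The last 3 bases were CAG in 118 members (67.4%) and in 5.60% of other 3p arms. Counting from the 3′ end, the last base was guanine in 77.7% of members, the base before it adenine in 80.6%, and the third cytosine in 70.9%. Pyrimidines made up a median of 72.0% of a member's bases, 54.5% in other 3p arms and 31.8% in the block's 5p arms. Cytosine alone was 40.9% in members, against 27.3% in other 3p arms. In the block's 5p arms the median share of guanine was 43.7%, against 14.3% in members. These are counts over sequences and were not tested. Their denominators are the names that had a RefSeq sequence.

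**Figure D1:**
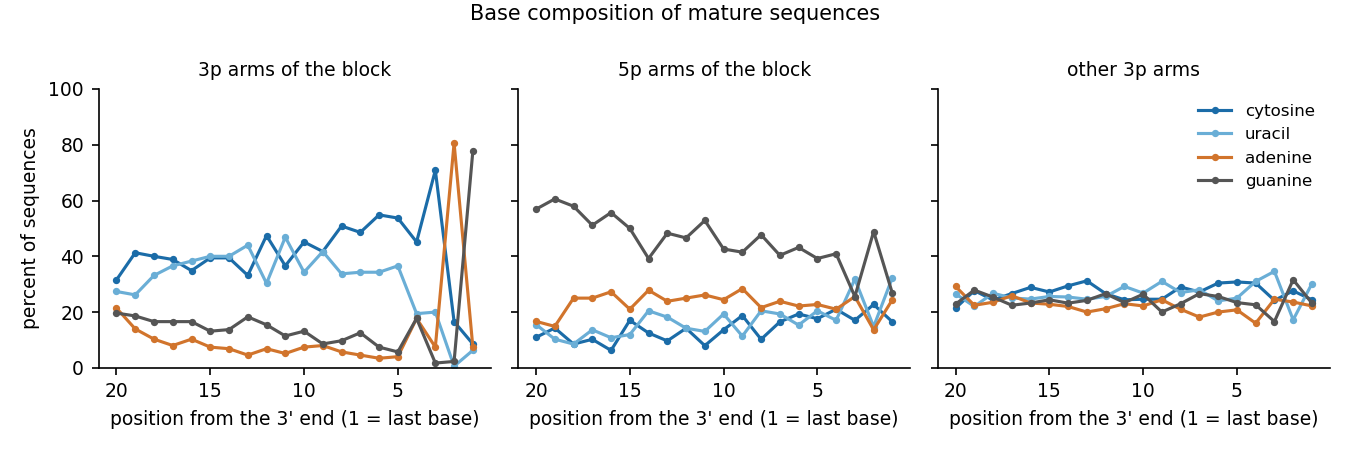
Percent of mature sequences with each base (vertical axis) at each of the last 20 positions, counted from the 3′ end (horizontal axis), for the 175 3p arms of the block, the 176 5p arms of the block and 500 other 3p arms. In the block's 3p arms cytosine and uracil dominate up to the third base from the end, adenine peaks at 80.6% in the next to last base and guanine at 77.7% in the last. In the other 3p arms each base lies between 16.0% and 34.6% at all 20 positions.

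The hairpins and their places in the genome had the same layout. Among 170 hairpins that hold a member's sequence, 160 (94.1%) ended in AG, against 10.3% of 468 hairpins of other 3p arms. The member was the very end of the hairpin in 126 (74.1%) and lay within 2 bases of it in 154 (90.6%). Those shares were 21.8% and 28.6% for other 3p arms. The median hairpin length was 66 bases for members and 79 for the others. Of the 175 members with a position, 174 lay within the extent of a protein-coding gene in RefSeq, 151 of them on that gene's strand. For the remaining 23 the strand of the gene was not listed, and none lay only in a gene of the opposite strand. Of other 3p arms, 289 of 500 (57.8%) lay in a protein-coding gene and 210 on its strand. Exons and introns were not assigned, and gene names below give the gene whose extent holds the member; for miR-6924, miR-6934 and miR-7080 its strand was not listed. The number range was chosen as a block of mostly intron-derived entries, so this layout and the position in genes are a description of the block.

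The hairpins of 3 members are printed to show this layout, with the 3p arm in capitals, from 5′ to 3′ on the strand of the miRNA. Each belongs to a member detected on both arrays: miR-7022-3p had the highest signal-to-error ratio, miR-6943-3p had nearly equal signals on both arrays, and miR-7047-3p was the member whose 5p arm was also detected on both.
miR-7022-3p: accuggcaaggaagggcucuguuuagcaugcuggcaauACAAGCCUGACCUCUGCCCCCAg
miR-6943-3p: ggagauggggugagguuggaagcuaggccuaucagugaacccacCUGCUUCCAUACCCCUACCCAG
miR-7047-3p: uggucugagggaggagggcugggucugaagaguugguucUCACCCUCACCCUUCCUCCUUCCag

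The miR-6943 hairpin ended with the last base of the member. In miR-7022 the annotated arm stopped 1 base short of the end, and in miR-7047 it stopped 2 bases short, so those arms lack the AG although their hairpins carry it.

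Few of the members were detected on the arrays. A member counted as detected when the total signal of at least 1 of its probes was over 3 times its error, which is what the scanner software's own flag records. Of the 199 members, 15 (7.54%) were detected on both arrays, 3 on array 1 only, none on array 2 only, and 181 on neither. Taking all 1881 names, 10.7% passed on both arrays, 16.6% on array 1 and 10.7% on array 2. For the members, array 1 by itself gave 9.05% and array 2 7.54%. The block's 5p arms had 21 of 200 (10.5%) detected on both arrays and 34 (17.0%) on array 1, and other 3p arms 59 of 586 (10.1%) on both. The members' share was thus below that of all names, and these shares were not tested against each other.

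The detected members were also close to the limit. The best probe of the 15 lay between 3.37 and 6.80 times its error on array 1, with a median of 4.51, and between 3.03 and 6.24 on array 2, with a median of 4.02. The 21 detected 5p arms reached 9.99 on array 1 and had a median of 8.26. With a limit of 6 in place of 3, miR-7022-3p was the one member left, and 12 5p arms were. Of all 1881 names, 85 (4.52%) passed that limit on both arrays. The majority of spots stood well above background on both arrays for 1 member, again miR-7022-3p, against 4.68% of all names. Of the 181 undetected members, the median ratio was 0.53 on array 1 and 0.42 on array 2.

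**Figure D2:**
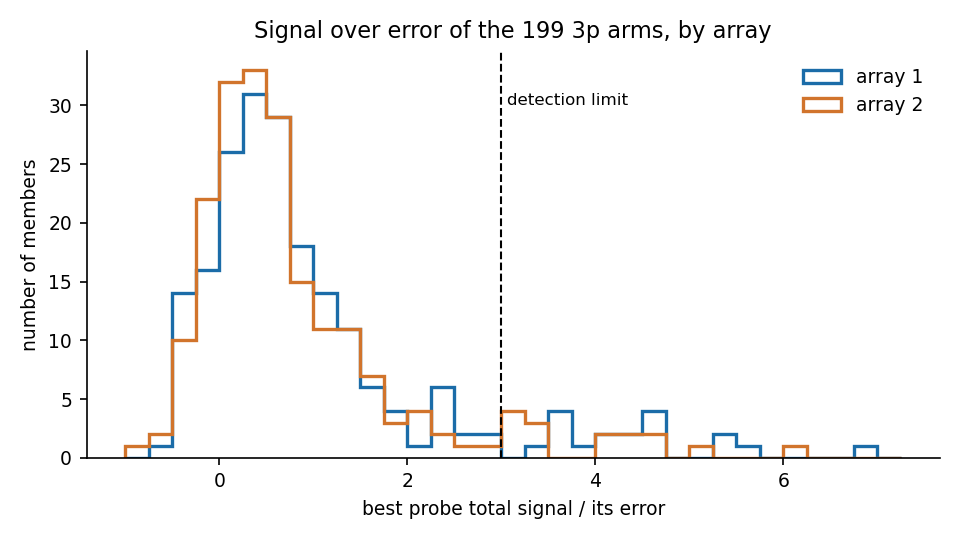
Number of members (vertical axis) by the ratio of the best probe's total signal to its error (horizontal axis) on array 1 and array 2, for all 199 members. Most lie below a ratio of 1, and the few past the dashed detection limit of 3 reach 6.80 on array 1 and 6.24 on array 2.

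Just above it on array 2 were miR-7045-3p at 3.03, miR-6980-3p at 3.16, miR-7067-3p at 3.20, miR-6923-3p at 3.20 and miR-6924-3p at 3.30. Their ratios on array 1 were 3.88, 3.65, 3.37, 4.37 and 3.72. Just below it on array 1, and undetected, were miR-7017-3p at 2.91, miR-7057-3p at 2.84, miR-6929-3p at 2.69, miR-6984-3p at 2.67 and miR-6931-3p at 2.47. On array 2 those 5 lay between 1.94 and 2.31.

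The mature sequences of the detected members are shown to let their shared feature be read, with the seed (bases 2 to 8) in capitals. RefSeq held 13 of the 15 members detected on both arrays, and miR-6923-3p and miR-6980-3p are named only.
miR-7022-3p: aCAAGCCUgaccucugccccca
miR-6943-3p: cUGCUUCCauaccccuacccag
miR-7047-3p: uCACCCUCacccuuccuccuucc
miR-6934-3p: aCCUCUGCuccugccccaccag
miR-6897-3p: cGGUCUGUguucuucccccag
miR-7080-3p: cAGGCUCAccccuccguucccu
miR-7055-3p: uUGCUACUuugauaccccaccag
miR-7085-3p: uAGCUGGCcucuccccaccuuc
miR-6976-3p: aUCUCCCUcccaacuccccag
miR-7045-3p: uCUCCCCCcucccccgcacag
miR-6924-3p: uCCUUAAUccccacccuucag
miR-7067-3p: uGAUUGCUucccuccccacag
miR-7046-3p: uGAACCACccaucccccuacag

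The 3 members detected on array 1 only follow in the same notation.
miR-7082-3p: gCCCCCCUugcugucugucucc
miR-6968-3p: aCAAGCGCugucuccccuccag
miR-7052-3p: gCUCUGCCcccuccuucccag

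These 16 sequences had 16 different seeds. The seed of miR-6897-3p also stands in miR-5106, a name outside the block that was detected on neither array. Over the 175 members there were 168 seeds. Only 6 were shared, by 13 members, such as miR-7018-3p, miR-7023-3p and miR-7068-3p with CACCCUG. All 13 were undetected, as were 159 of the 175 members.

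What the detected members had in common was a run of cytosines. A run of at least 4 cytosines (CCCC) occurred in 47 of the 175 members (26.9%), in 7.60% of other 3p arms and in 1.70% of the block's 5p arms. Of the 47 members with such a run, 12 (25.5%) were detected on both arrays and 3 more on array 1. Of the 128 members without one, 1 (0.781%) was detected, namely miR-7047-3p, whose longest run was 3. By the longest run, the counts detected on both arrays were 0 of 6 members with a run of 0 or 1, 0 of 59 with 2, 1 of 63 with 3, 8 of 39 with 4, and 4 of 8 with 5 or more. The feature was noticed after the sequences of the detected members had been seen, and it was not tested.

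Many members with such a run were not detected. Among the 47, 32 were detected on neither array, with mean intensities of -0.76 to 7.01 on array 1 and a median of 2.96. The median place of the run was the same: 5 bases followed it in the 12 detected on both arrays and in the 32 undetected. The range was 1 to 12 bases in the detected and 2 to 16 in the undetected. The 3 undetected members with the longest runs, of lowest signal where runs tied, are shown for comparison.
miR-7028-3p: cCUUCUCUucccccucggccag
miR-6937-3p: uCACAGGUucccccuugcacuag
miR-6909-3p: uGCCUUCCccggccucccacag

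The 3 members of lowest signal in the block had no run over 3.
miR-7018-3p: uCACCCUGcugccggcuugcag
miR-6941-3p: cUAACUCGgcugcucccaaag
miR-7035-3p: uCUGAGCCgcugucccugcag

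Across the 175 members, Spearman's rho between the length of the longest cytosine run and the unscaled log2 signal was 0.49 for array 1 and 0.47 for array 2. For the percentage of pyrimidines it was nearly as high, 0.44 on both, for that of cytosine 0.34 and 0.28, for GC content -0.01 and -0.06, and for length 0.05 and -0.01. In the 500 other 3p arms rho was 0.16 and 0.18 for the run and higher, 0.29 and 0.36, for pyrimidines. These are descriptions across names that share arrays and base composition. They also set different probes side by side, so a signal is not an amount of RNA. The same count in other 3p arms gave 14 of 38 (36.8%) detected on both arrays with a run of at least 4 and 36 of 462 (7.79%) without.

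**Figure D3:**
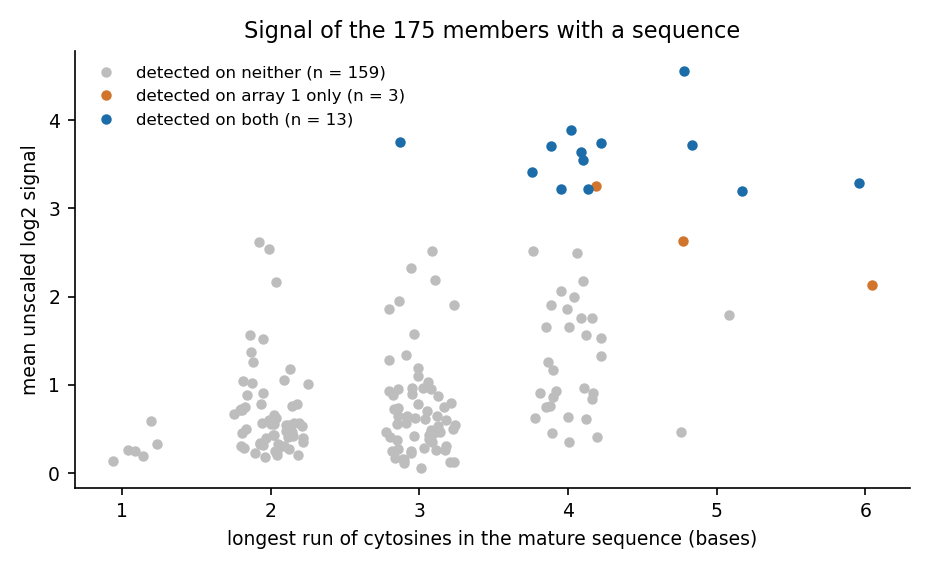
Mean unscaled log2 signal of the 2 arrays (vertical axis) against the longest run of cytosines in the mature sequence (horizontal axis, points spread sideways within each whole number), for 175 members. The 13 members detected on both arrays and the 3 detected on array 1 lie at runs of 4 to 6, except miR-7047-3p at 3, and most undetected members lie at 2 or 3.

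Signals are given below as processed intensity, the scanner's background-subtracted brightness, as the mean over spots on each array, and as the mean of log2 intensity over probes (mean ± SD, n = 2 arrays). Negative-control spots had a mean intensity plus 3 SD of 7.44 on array 1 and 9.27 on array 2. Each member had 2 probes, or 3 in 16 cases, with 24 to 30 usable spots on array 1 and 25 to 30 on array 2. No spot of either array was saturated.

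miR-7022-3p had an intensity of 25.05 on array 1 and 22.5 on array 2, and all 28 and all 29 of its spots were well above background. It was the clearest member, with a log2 signal of 4.56 ± 0.11 (SD, n = 2) and ratios of 6.80 and 6.24. The sequence lies at chr4:148146937-148146958 on the minus strand, within Fbxo6, which encodes a substrate-binding subunit of a ubiquitin ligase.

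miR-6943-3p gave 15.1 on both arrays, and its log2 signals of 3.88 and 3.89 differed least but for miR-7067-3p. At chr13:55453150-55453171 on the plus strand, it lies in Grk6, a kinase of G-protein-coupled receptors. miR-6897-3p, at chr1:36144252-36144272 on the minus strand in Uggt1, a sensor of glycoprotein folding, had 14.1 and 12.9. Its log2 mean was 3.72 ± 0.09 (SD, n = 2).

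miR-6934-3p (chr11:119154076-119154097, minus strand, in the Rab-regulating gene Tbc1d16) had 14.2 and 13.005. miR-7055-3p (chr7:45173339-45173361, plus strand, in Slc17a7, a vesicular glutamate transporter) had 13.1 and 12.4. In both, all probes passed on both arrays. miR-7085-3p, at chr9:44400465-44400486 on the plus strand in Slc37a4, the glucose-6-phosphate transporter of the endoplasmic reticulum, had 12.7 and 11.8.

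Probes of 7 of the 15 members passed only in part on array 2. miR-7080-3p (chr8:123130147-123130168, plus strand, in Cpne7, a calcium-dependent lipid-binding protein) had 15.3 and 13.1. One of its probes had ratios of 5.63 and 5.07, and the other 3.77 and 2.95. miR-6976-3p (chr17:46553827-46553847, minus strand, in Srf, serum response factor) had 13.2 and 11.1, from a probe with ratios of 5.27 and 4.65 and another with 3.02 and 2.07.

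The negative-control limit on array 2 was not reached by 5 of the 15 members, miR-6923-3p, miR-6980-3p, miR-7045-3p, miR-7046-3p and miR-6924-3p. miR-6923-3p had intensities of 11.9 and 9.266, and miR-6980-3p of 10.8 and 8.96. miR-7045-3p, with 6 cytosines in a row the longest run of those detected on both arrays, had 11.3 and 8.92. It lies at chr6:125097066-125097086 on the plus strand in Chd4, a chromatin remodeller. miR-7046-3p (chr7:24970010-24970031, minus strand, in the membrane-trafficking gene Rabac1) had 10.9 and 9.22. miR-6924-3p (chr11:69882032-69882052, minus strand, in Acap1, a GTPase-activating protein) had 10.5 and 9.05. miR-7067-3p had 9.65 and 9.72, just above the limit on array 2. Of all 199 members, 10 passed the limit on both arrays, each of them among the 15, beside 8.72% of all 1881 names.

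miR-7047-3p, the member without a run of 4, differed most between the arrays, with intensities of 17.9 and 10.7. Its log2 signals were 4.14 and 3.37, a difference of 0.76 and an SD of 0.54. Both probes showed it, with ratios of 5.44 and 5.30 on array 1 and of 3.49 and 3.40 on array 2. The next largest differences were 0.39 for miR-6923-3p and 0.37 for miR-6976-3p.

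**Figure D4:**
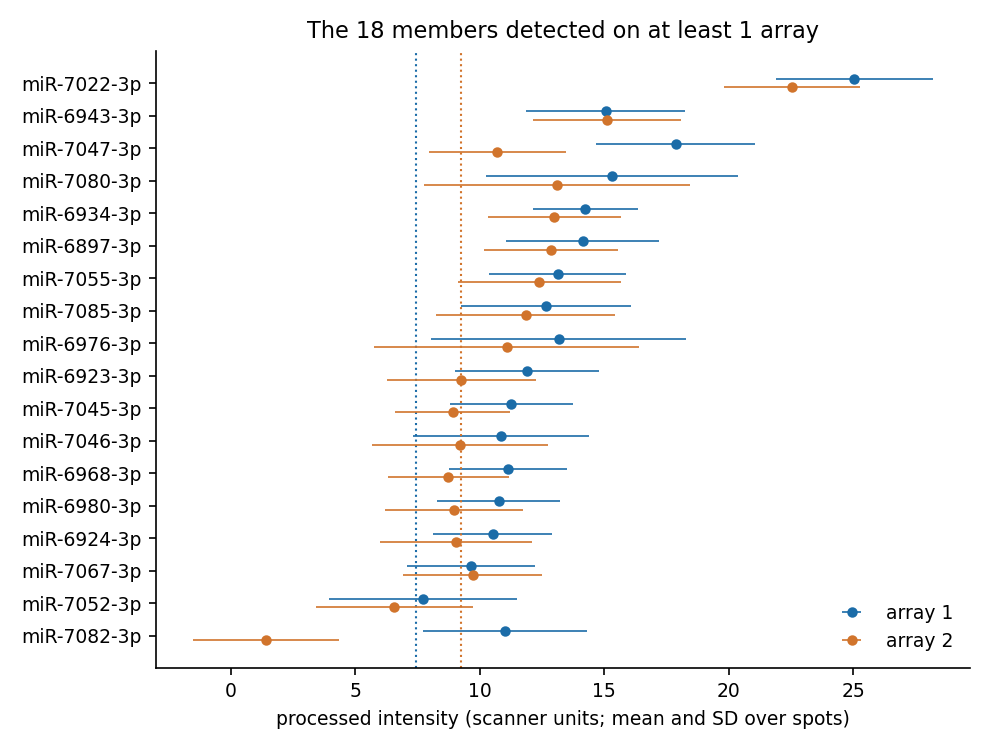
Processed intensity (horizontal axis, scanner units) of the 18 members detected on at least 1 array, with points at the mean and bars of 1 SD over the spots of array 1 and array 2, and dotted lines at the negative-control mean plus 3 SD of 7.44 and 9.27. miR-7022-3p stands highest at 25.05 and 22.5, and miR-7082-3p is the one member that falls to 1.41 on array 2.

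Of the 3 members detected on array 1 only, 2 narrowly missed on array 2. miR-6968-3p had 11.1 and 8.74 (ratios of 3.70 and 2.88), at chr17:26935518-26935539 on the plus strand in Phf1, a partner of Polycomb complexes. miR-7052-3p had 7.72 and 6.58 (3.53 and 2.63), at chr7:44470391-44470411 on the plus strand in Josd2, a deubiquitinase. The other probe of miR-7052-3p had ratios of 1.84 and 1.75 and passed on neither array. The third, miR-7082-3p, was different: 11.01 on array 1 with all 3 probes passing, and 1.41 on array 2 with none. Its log2 signals were 3.39 and 0.88, 2.51 apart. It lies at chr9:21075499-21075520 on the minus strand in Raver1, a splicing cofactor. Its run of 6 cytosines sits at the start, with 15 bases after it. In the 12 detected on both arrays 1 to 12 bases follow the run, and in the 32 undetected members with a run of at least 4 it is 2 to 16. Whether the place of the run matters was not tested.

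Signals of the 15 members detected on both arrays were nearly the same on the 2 arrays before any scaling. The difference in log2 signal, array 1 minus array 2, had a median of 0.27 over the 15, with a range of -0.01 to 0.76. It was under 0.5 for 14 of them. None was over 2-fold apart, whereas 42.8% of the 201 names detected on both arrays were. Passing on both arrays was required, however, and a member this near the limit that falls far on 1 array drops out. miR-7082-3p, detected on array 1 only and 2.51 apart, was left out in this way. The narrow range is thus in part set by the selection. The 21 5p arms of the block had a median difference of 0.96 and a range of -0.47 to 2.41, and 9 of them were over 2-fold apart. All 201 names had a median of 0.78.

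Dim signals lie close to the background on both arrays, so the members were also set beside names in the same range of signal. Among 76 names outside the block whose mean log2 signal lay in the members' range of 3.20 to 4.56, the median difference was 0.53, with 25 over 2-fold apart. The top of that range was set by miR-7022-3p. On array 1 the 76 names had a median log2 signal of 4.09, against 3.61 for the members, and on array 2 of 3.39 against 3.37. They were thus not matched in brightness on array 1. Other 3p arms with a cytosine run of at least 4 resembled the members: the 14 detected on both arrays had a median difference of 0.16, between -0.21 and 0.80, and 0 were over 2-fold apart. The 36 without such a run had a median of 0.95, with 18 over 2-fold apart. Other sets with such a run were farther apart. In 5p arms of other numbers, 3 were detected on both arrays, with a median of 0.57 and 1 over 2-fold apart. The 40 without a run had 1.62. In names without an arm it was also 3, with a median of 0.70 and 1 over 2-fold apart. The 39 without a run had 0.74. The part of dim signal or of base composition in these differences was not tested.

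The sign of the difference depended on the scaling. When each array's 75th percentile over the names detected on both arrays was subtracted (6.29 and 4.58), all 15 members became brighter on array 2. The median was then -1.44, and 14 were over 2-fold apart. Quantile normalization gave -0.58. Unscaled, the 4 detected control probes with names in dmr differed by 0.06 to 0.17. The detected ones with names in hur or mr were higher on array 1 by 0.75 to 2.78.

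**Figure D5:**
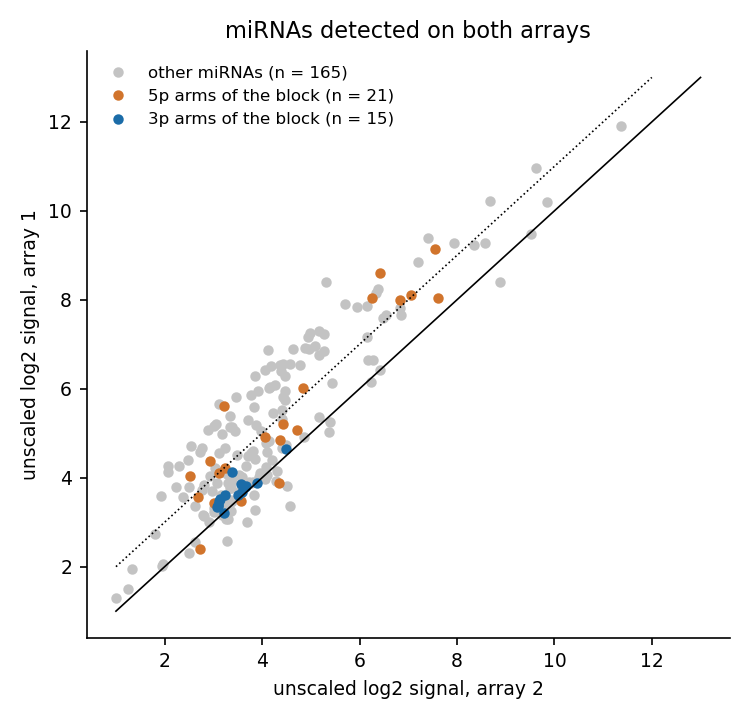
Unscaled log2 signal on array 1 (vertical axis) against array 2 (horizontal axis) for the 201 names detected on both arrays, with the line of equality (solid) and of a 2-fold higher signal on array 1 (dotted). The 15 members lie near equality with a median difference of 0.27, while 9 of the 21 5p arms of the block are over 2-fold apart.

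Detection was also counted for both arms of each hairpin. Of 198 hairpins with both arms on the array, the 3p arm alone was detected on both arrays in 13 with the 5p arm on neither, the 5p arm alone in 19, and both arms in 1. In 150 neither arm was detected on either array. The 1 was miR-7047, whose 5p arm had intensities of 355 and 177 beside 17.9 and 10.7 for the 3p arm. miR-7082-5p was detected on both arrays (37.4 and 22.0) and its 3p arm on array 1 only. miR-7045-5p was detected on array 1 only (9.57 and 5.99). Arms are read by different probes, so these values do not give a ratio between them.

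For the other 13 members detected on both arrays, the 5p partner had a ratio to error of at most 2.70 on array 1 (miR-6980-5p) and 1.51 on array 2. The clearest member, miR-7022-3p, had a partner at intensities of 0.34 and 1.79, near the negative controls. In the opposite direction, the bright 5p arms miR-7042-5p (682 and 225), miR-6969-5p (396 and 87.5), miR-7005-5p (307 and 89.8), miR-7036a-5p (266 and 198) and miR-6931-5p (261 and 115) had undetected 3p arms. Of these, miR-6931-3p came nearest to the limit, at 2.47 times its error.

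Outside the block, 5 well-known mirtrons were followed for their 3p arms. miR-702-3p had intensities of 19.2 and 17.2 and miR-877-3p of 24.1 and 17.3, and miR-3102-3p had 9.03 and 10.2, all detected on both arrays. miR-1224-3p (2.005 and 1.68) and miR-1981-3p (-0.29 and 0.69) were detected on neither. The median cytosine share of the 5 sequences was 54.5%, and 3 of them had a run of at least 4, while 1 of the 5 ended in AG.

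Short lists of miRNAs linked to cell types were also read. miR-21a-5p and miR-31-5p, which tumour lines often express, passed on both arrays. So did 3 of 5 fibroblast miRNAs, miR-199a-3p, miR-199a-5p and miR-214-3p, while miR-143-3p and miR-145a-5p were detected on neither. None of 7 epithelial miRNAs, such as miR-200c-3p and miR-205-5p, was detected on either array. None of the 4 red cell miRNAs was detected, and of 5 leukocyte miRNAs 1 was detected, on array 1 only. Of all 1881 names 10.7% passed on both arrays, so lists this short do not check the source of the RNA. The part of any other cell type in the members' signals was not tested.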

How the data were processed

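RNA from exosomes of cisplatin-treated LLC cells was read on 2 one-colour arrays, 1 per sample, grouped by their labels. Spot intensity in the deposited scanner files is linear, with background subtracted per the file headers and no normalization between arrays. The submitters' processing notes name the software as Feature Extraction 10.7.1.1 (Agilent). The same deposited files hold flags of 0 or 1. A deposited series table, made by the authors, gives log2 values. Its normalization is unstated in the sources used here. Both columns have a median of -3.32, and it was used only as an alternative. The labels describe a cRNA amplification kit, while the file headers name an extraction protocol for miRNA, so how the RNA was labelled is unsettled.

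Outlier spots were left out (66 of 5970 member spots on array 1, 84 on array 2). For each name, log2 intensity was averaged over the spots of a probe and then over its probes, with values under 1 set to 1, unscaled unless stated. The software's detection flag equalled the rule of a probe over 3 times its error for all 1881 names on both arrays. Sequences, hairpins and gene extents are RefSeq's (GRCm38.p6), matched by name. The array files name no build. The position and gene of miR-7047-3p and miR-7067-3p are not reported here. The members and lists were chosen with earlier results of these data known. Named are the members detected on both arrays, the members detected on 1 array, the 5 nearest the limit on each side, 5p partners, and the 3 members farthest apart. The 5 bright 5p arms and the cytosine run were chosen after their values were seen. Python 3.11.15 (numpy 2.4.6, pandas 2.3.3, scipy 1.17.1) and R 4.3.3 with limma 3.58.1 were used. On simulated arrays of 1881 names a built-in log2 difference of 1 was recovered as 1.01, in names made much brighter than any member. No simulated name had a true signal near that of the detected members, so the simulation does not show how well their differences or detection are recovered.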

Additional observations from a re-analysis of the deposited data

How the results depend on the processing

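No paired analysis was possible because there is 1 group. The count of 15 members detected on both arrays became 1 when well-above-background flags were required for most spots (with or without outlier spots) and 1 at 6 times the error, and 8 when at least 2 probes had to pass. It was 10 over the negative-control limit and 18 on at least 1 array, and 15 to 18 when 1 array was left out. For the 21 5p arms the counts were 11 (with or without outlier spots), 12 and 13, then 18 and 34, and 21 to 34 with 1 array left out. Of all 1881 names, 4.68% passed the well-above-background rule, 4.52% passed at 6 times the error and 6.49% with at least 2 probes. Over the negative-control limit it was 8.72%, and on at least 1 array 16.6%. The median difference of 0.27 was 0.044 with normexp (an offset of 50 draws low values together) and 0.74 for the sum of detected probe totals. It turned to -1.05 in the authors' deposited table, to -1.44 and -0.073 after subtracting the 75th percentile over detected or all names, and to -0.58 after quantile normalization. It was 0.16 for the brightest probe, and 0.27 both with a floor of 0.1 and with outlier spots kept. The share of sequences ending in AG was 77.7% in members, 11.2% in other 3p arms and 6.82% in 5p arms. With signals this near the background, which members pass depends on the rule, and the cause was not tested.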

Other observations

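In the authors' deposited table, all 199 members have a value. Of these, 18 lie above the table's lowest value of -3.32 in the column of array 1, all of them detected there, and 19 in the column of array 2, of which 15 were detected and 4 were not.

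Members were spread over 19 chromosomes, and those detected on both arrays included 3 of the 17 on chromosome 7, 2 of 16 on chromosome 11 and 2 of 16 on chromosome 8. None of the 16 members on chromosome 5 or of the 12 each on chromosomes 2 and 19 was detected on both arrays. Over all chromosomes it was 13 of the 175 members with a position, so few would be expected on any single chromosome. The counts are too small to show or exclude a chromosomal pattern and were not tested. In names without an arm, a cytosine run of at least 4 went with detection on both arrays in 3 of 13, against 39 of 257 without one, and in 5p arms of other numbers in 3 of 19, against 40 of 468.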
